A study of Caenorhabditis elegans with 22 samples.

Results

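The genes of oxidative phosphorylation were followed through 22 RNA-seq libraries of whole adult Caenorhabditis elegans. Members were the genes whose symbol in the deposited count table named a subunit of complexes I to V, a cytochrome c or a complex IV assembly factor (nuo, nduo, ndfl, sdha, sdhb, sdhd, isp, cyc, ucr, cox, cco, ctc, ctb, atp, asb and asg with a number, and gas-1, mev-1 and lpd-5). The rule found 45 of 19598 genes, of which 35 are nuclear and 10 are encoded by mitochondrial DNA, and all 45 passed the filter on low counts. The mitochondrial genes ctb-1 and ctc-3 had no row in the count table and could not be followed, so complex III was covered by nuclear members alone. For N2, the wild-type strain, there were 5 DMSO libraries, 3 serotonin libraries and 3 libraries from animals given loxapine, a tricyclic antipsychotic drug. The strain with the allele ser-7(vq2), in a serotonin receptor gene, gave 3 libraries with DMSO and 3 with serotonin. The strain with the allele ser-5(vq1), in another serotonin receptor gene, gave 3 with DMSO and 2 with loxapine. Animals of every group lived in liquid culture on killed OP50 bacteria, received 0.12 mM FUDR, which blocks progeny, at the L4 stage, and were treated from day 1 of adulthood with 5 mM serotonin or 50 µM loxapine until harvest 72 h later. Loxapine came in DMSO and serotonin in water, so a difference in vehicle and the effect of serotonin cannot be told apart.

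Oxidative phosphorylation makes most of the ATP of an aerobic cell. Complexes I and II pass electrons from NADH and succinate to ubiquinone, complex III passes them to cytochrome c, and complex IV passes them to oxygen, while complexes I, III and IV move protons across the inner mitochondrial membrane. Complex V, the ATP synthase, uses the returning protons. Most subunits are encoded in the nucleus and imported, and a core set is encoded by mitochondrial DNA, so that complexes I, III, IV and V are built from both genomes and complex II from nuclear genes alone. In worms, several of these genes (gas-1, mev-1, isp-1, nuo-6) are known from mutants with altered lifespan or stress resistance.

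Library totals lay between 25652111 and 39765014 counts. Nothing in the labels ties a replicate to its own culture, and the p-values therefore reflect only how far these libraries differ, which may be technical. Counts of ser-7 were 0 or 1 in every ser-7 library, against 72 to 106 in N2 with DMSO. Counts of ser-5 were 5 to 21 in the ser-5 libraries, against 47 to 78. The N2 DMSO replicates 2 and 5, and 3 and 6, were closer to each other than other replicates (chi-square per degree of freedom of 5.17 and 4.03, against 12.6 to 151 in 24 other pairs). Each pair still differed by more than sampling noise and was kept as separate libraries. That difference does not show separate cultures, and whether the pairs are repeat libraries of the same cultures is not known. If they are, the N2 DMSO libraries overstate the number of independent controls. Levels are given as CPM relative to the TMM-scaled library total, and in bulk RNA fewer cells of a type and less RNA per cell cannot be told apart.

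Levels were compared between genes only as CPM per kb of exon. Among nuclear members in N2 with DMSO, the level per kb ranged from 1.21 for cyc-2.2 to 1663 for cyc-2.1, both cytochrome c genes, with a median of 177.5. After cyc-2.1 the highest nuclear levels were those of cco-2, a complex IV subunit, at 754 ± 78.2 CPM per kb, atp-5 (subunit d of complex V) at 674 ± 33.6 and atp-2 (its catalytic beta subunit) at 665 ± 48.0 (SD, n = 5). Nuclear complex V subunits ranged down to 152.5 for asb-1, below the nuclear median. The nuclear subunits of complex I lay in a narrow band, from 84.6 for nuo-5 to 241 for nuo-1, which binds NADH. The 4 complex IV assembly genes were low, from 7.27 CPM per kb for cox-10, which makes the farnesylated heme, to 51.9 for cox-15, the next enzyme of heme A synthesis. Replicate spread was small for most nuclear members, with a median coefficient of variation of 6.18% over the 5 N2 DMSO libraries.

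The 10 mitochondrial members spanned 938-fold per length, from 1.92 CPM per kb for ndfl-4 (the ND4L subunit) to 1797 for ctc-1, the catalytic subunit of complex IV. All 10 lie on the plus strand of the mitochondrial genome, and neighbours differed widely. In N2 with DMSO, nduo-1 (ND1) was at 609.5 ± 23.7 CPM per kb, atp-6 (subunit a of complex V) at 1410 ± 120 and nduo-2 (ND2), the next gene with a row, at 7.20 ± 2.11 (SD, n = 5). The level per kb of atp-6 was 125 to 263 times that of nduo-2 in every one of the 22 libraries. Further along the map, ctc-2 was 48.4 to 109 times nduo-3. The 4 highest genes, ctc-1, atp-6, ctc-2 and nduo-1, held 91.1 to 93.5% of the mitochondrial members' counts in each library, and the 4 lowest, nduo-2, nduo-3, nduo-6 and ndfl-4, held 0.236 to 0.445%. The smallest counts were 7 to 26 for ndfl-4, so its differences between groups were not measurable with any precision. Annotated ends overlap by 2 bases for nduo-1 and atp-6, and by 1 base for nduo-6 with ndfl-4 and for nduo-3 with nduo-5, and how reads across such ends were counted is not given in the sources used here.

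**Figure D1:**
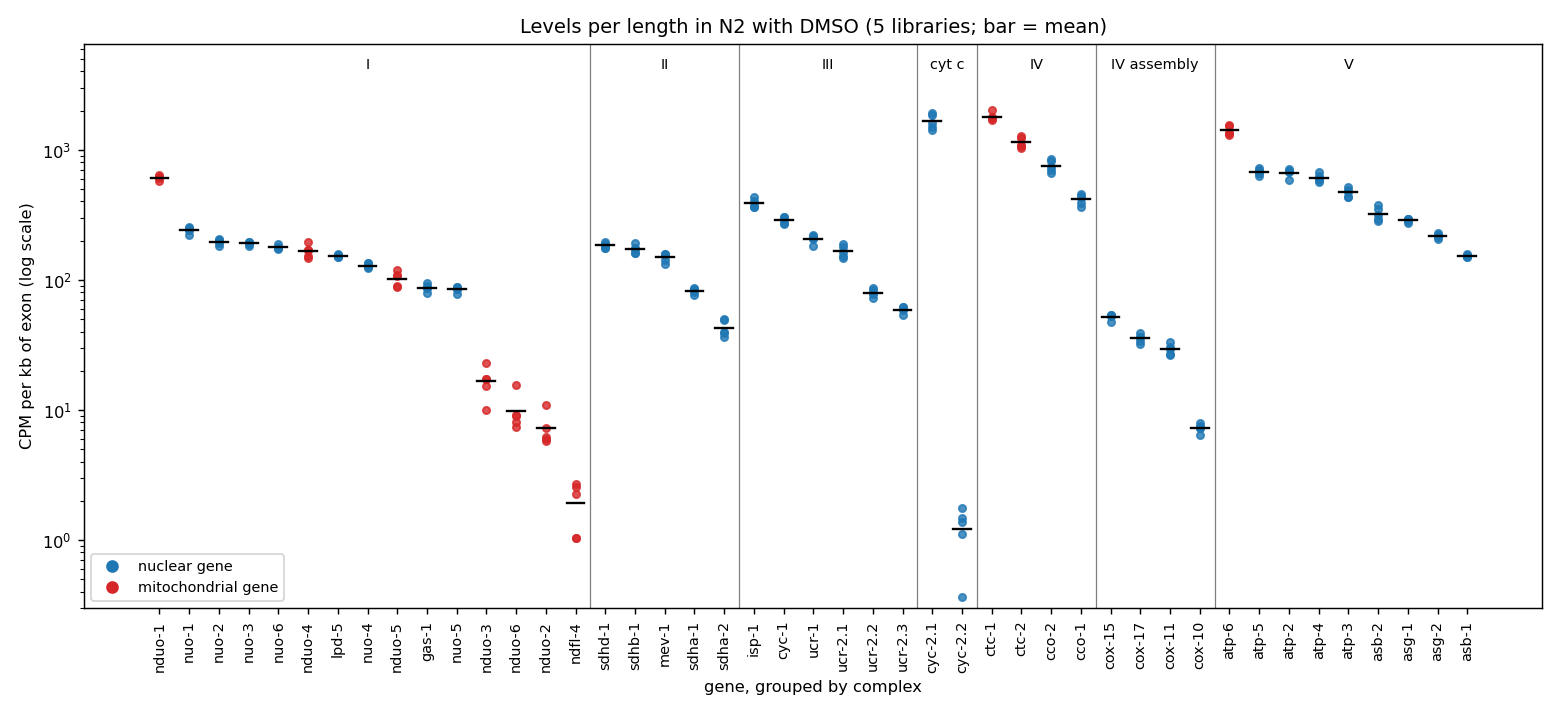
Level of each of the 45 genes in N2 with DMSO as CPM per kb of exon on a log axis, grouped by complex, with 1 point per library (5 libraries), a bar at the mean, nuclear genes in blue and mitochondrial genes in red. Mitochondrial genes are both the highest (ctc-1, 1797) and among the lowest (ndfl-4, 1.92), while cyc-2.2 is the lowest of all at 1.21.

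Serotonin in N2 changed few of these genes. With serotonin, 6 of 45 members passed the test (edgeR quasi-likelihood, Benjamini-Hochberg adjusted p under 0.05 over all tested genes), 4 higher and 2 lower, against 37.1% of all 16431 tested genes, of which 20.4% were higher and 16.8% lower. The members' share was 13.3%, below that background. The higher members were ucr-2.3, sdha-2, asb-1 and cox-11, and the lower members were sdha-1 and ucr-2.2. The median log2 fold change was 0.03 for the 35 nuclear members and -0.09 for the 10 mitochondrial members (-0.208 to 0.012 on leaving out single libraries), beside -0.12 for all tested genes. With RLE size factors in place of TMM, and with DESeq2, the split was 6 higher and 0 lower, the higher set then being asb-1, asg-1, cox-11, nuo-3, sdha-2 and ucr-2.3.

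**Figure D2:**
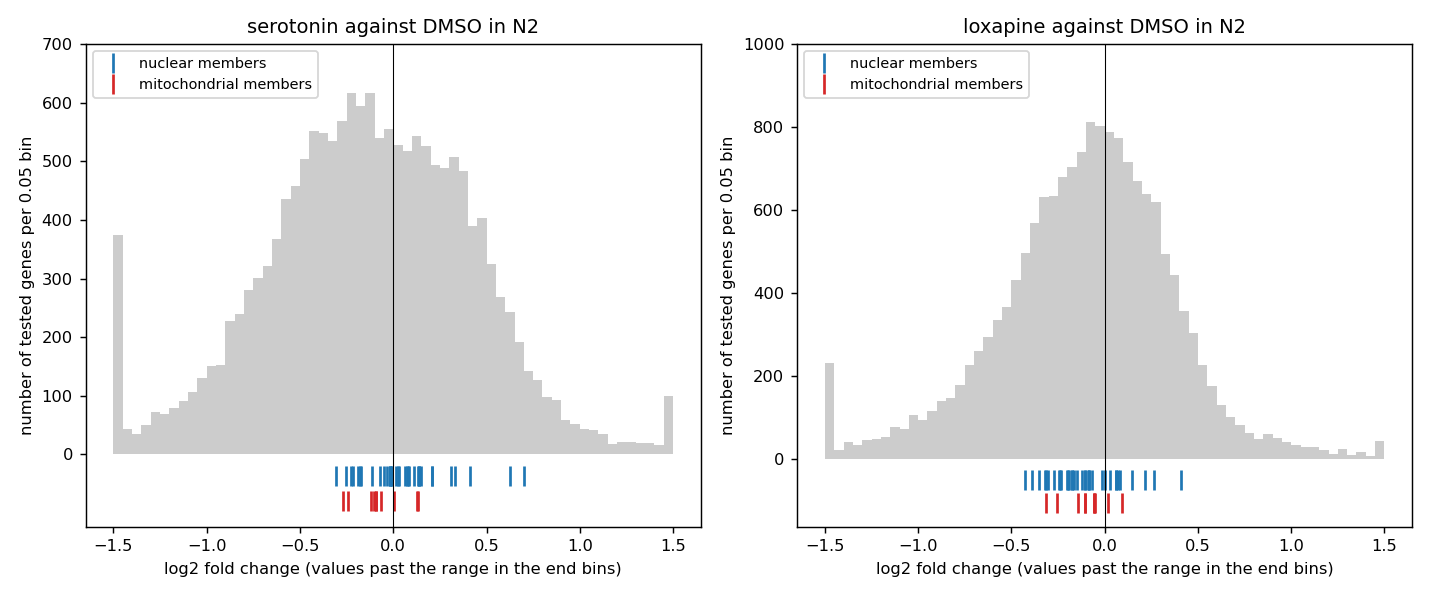
Number of tested genes per bin of log2 fold change in N2 for serotonin (left) and loxapine (right), with the 35 nuclear members as blue ticks and the 10 mitochondrial members as red ticks under the axis. Members lie in the middle of both distributions, from -0.31 to 0.70 with serotonin and from -0.43 to 0.41 with loxapine.

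Of the 6 calls, 5 fell on paralogs, genes present in more than 1 copy. The paralog sets hold 11 of the 35 nuclear members, so 5 of 11 passed, a share near the 37.1% of all tested genes, and the other 24 nuclear members gave 1 call, a share below it. Whether the paralogs differ from other members was not tested. The 3 higher calls among them, sdha-2, ucr-2.3 and asb-1, were on autosomes, and the 2 lower calls, sdha-1 and ucr-2.2, on the X chromosome. The count of 6 was 2 without serotonin replicate 3, where sdha-2 and ucr-2.3 were called, and 8 without serotonin replicate 1.

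Complex II oxidises succinate, and its flavoprotein subunit is encoded by sdha-1 (X:8542757-8546021) and sdha-2 (I:10683270-10685587). The level of sdha-2 was 79.2, 101, 80.5, 73.5 and 102 CPM in N2 DMSO replicates 2 to 6. With serotonin it was 99.5, 150 and 155 CPM in replicates 1 to 3. Replicates 2 and 3 lay above every control and replicate 1 within the control range. The gene rose 1.54-fold (log2 0.63 ± 0.13 SE, adjusted p = 0.000782, edgeR), and the call held in all 18 alternatives run for it, with log2 values from 0.52 to 0.81. The level of sdha-1 was 204, 208, 184.5, 195 and 200 CPM in the controls. With serotonin it was 187, 175.5 and 144 CPM, of which replicate 1 lay within the control range. It fell by 0.23 ± 0.09 on the log2 scale (adjusted p = 0.0425, edgeR). That call was lost with RLE size factors (adjusted p = 0.137) and under the replicate block (adjusted p = 0.0666). It was also lost without N2 DMSO replicates 2 (0.0773), 3 (0.0812), 5 (0.0594) or 6 (0.0646) and without serotonin replicates 2 (0.0596) or 3 (0.257), all edgeR adjusted p-values. The remaining subunits, sdhb-1 (iron-sulfur protein), mev-1 and sdhd-1 (membrane anchors), did not pass, with log2 fold changes of 0.08, 0.15 and 0.14. Per kb of exon, the ratio of sdha-2 to sdha-1 was 0.518 ± 0.068 in N2 with DMSO (SD, n = 5) and 0.967 ± 0.321 with serotonin (SD, n = 3). The lowest serotonin library, at 0.627, was above the highest control, at 0.602.

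Complex III takes electrons from ubiquinol, and its core protein 2 has 3 copies, ucr-2.1 (X:12018429-12021206), ucr-2.2 (X:15173904-15178145) and ucr-2.3 (III:879860-881458). The level of ucr-2.3 was 79.8, 83.7, 72.0, 79.0 and 83.1 CPM in the N2 controls and 93.0, 127 and 168 CPM with serotonin. All serotonin libraries lay above all controls. The rise was 1.63-fold (log2 0.70 ± 0.13 SE, adjusted p = 0.000333, edgeR), the largest among the 45 members, and held in all 18 alternatives, with log2 values from 0.47 to 0.89. The level of ucr-2.2 was 123, 119, 105, 113.5 and 112 CPM in the controls and 105, 81.3 and 91.1 CPM with serotonin. Replicate 1 lay within the control range. It fell by 0.31 ± 0.12 on the log2 scale (adjusted p = 0.0441, edgeR), a call that RLE size factors ended (0.123). The call was also lost without N2 DMSO replicates 2 (0.0906), 3 (0.0732), 5 (0.065) or 6 (0.0576) and without serotonin replicates 2 (0.213) or 3 (0.103), all edgeR adjusted p-values. The most abundant copy, ucr-2.1, was at 0.89-fold (log2 -0.17 ± 0.12, adjusted p = 0.294, edgeR) and did not pass. The per-kb ratio of ucr-2.3 to ucr-2.2 was 0.740 ± 0.035 in the controls (SD, n = 5) and 1.52 ± 0.53 with serotonin (SD, n = 3), where libraries ran from 0.941 to 1.97. The single-copy subunits cyc-1 (cytochrome c1), isp-1 (the Rieske iron-sulfur protein) and ucr-1 (core protein 1) had log2 fold changes of 0.03, -0.07 and -0.03.

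In complex V, subunits b and g each have a pair of genes. In C. elegans asb-1 (III:4594543-4595821) is known as the germline form of subunit b, and asb-2 (X:4469766-4471476) is the other form. The level of asb-1 was 156, 158, 152.5, 161 and 154 CPM in the controls and 162, 208 and 254 CPM with serotonin. Serotonin replicate 1 was just above the highest control, and the groups did not overlap. The rise was 1.33-fold (log2 0.41 ± 0.11 SE, adjusted p = 0.00474, edgeR). It did not pass without serotonin replicate 3 (log2 0.24, adjusted p = 0.0901, edgeR) or with N2 DMSO replicates 2 and 3 as the only controls (0.0614). The level of asb-2 was 440.5, 368.5, 334, 414 and 346 CPM in the controls and 370, 279 and 310 CPM with serotonin. The groups overlapped through replicate 1, and the log2 fold change of -0.25 ± 0.12 did not pass (adjusted p = 0.0991, edgeR), although it did under the replicate block (log2 -0.39, adjusted p = 0.032) and without serotonin replicate 1 (log2 -0.37, adjusted p = 0.0236). For subunit g, asg-1 (I:8692946-8693468) was at 131 to 141 CPM in the controls and at 143, 148.5 and 216.5 CPM with serotonin. Its X-linked partner asg-2 (X:6841258-6842121) was at 101 to 114.5 CPM in the controls and at 98.5, 83.5 and 97.7 CPM with serotonin. Neither pair of groups overlapped, yet neither gene passed (log2 0.31 with adjusted p = 0.066 and log2 -0.22 with adjusted p = 0.11, edgeR). Both passed with the run of library numbers as a block (asg-1 0.0289, asg-2 0.0397). The call for asg-1 was also gained with RLE size factors (0.0336) and without serotonin replicates 1 (0.0199) or 2 (0.0428), and that for asg-2 with the compared groups only (0.0348). The per-kb ratio of asb-1 to asb-2 was 0.478 ± 0.049 in the controls (SD, n = 5) and 0.769 ± 0.234 with serotonin (SD, n = 3), and the lowest serotonin library, at 0.504, lay within the control range of 0.408 to 0.525. That of asg-1 to asg-2 was 1.32 ± 0.05 and 1.90 ± 0.40, without overlap. The F1 and stalk subunits atp-2, atp-3, atp-4 and atp-5 had log2 fold changes between -0.02 and 0.11, none past the test.

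**Figure D3:**
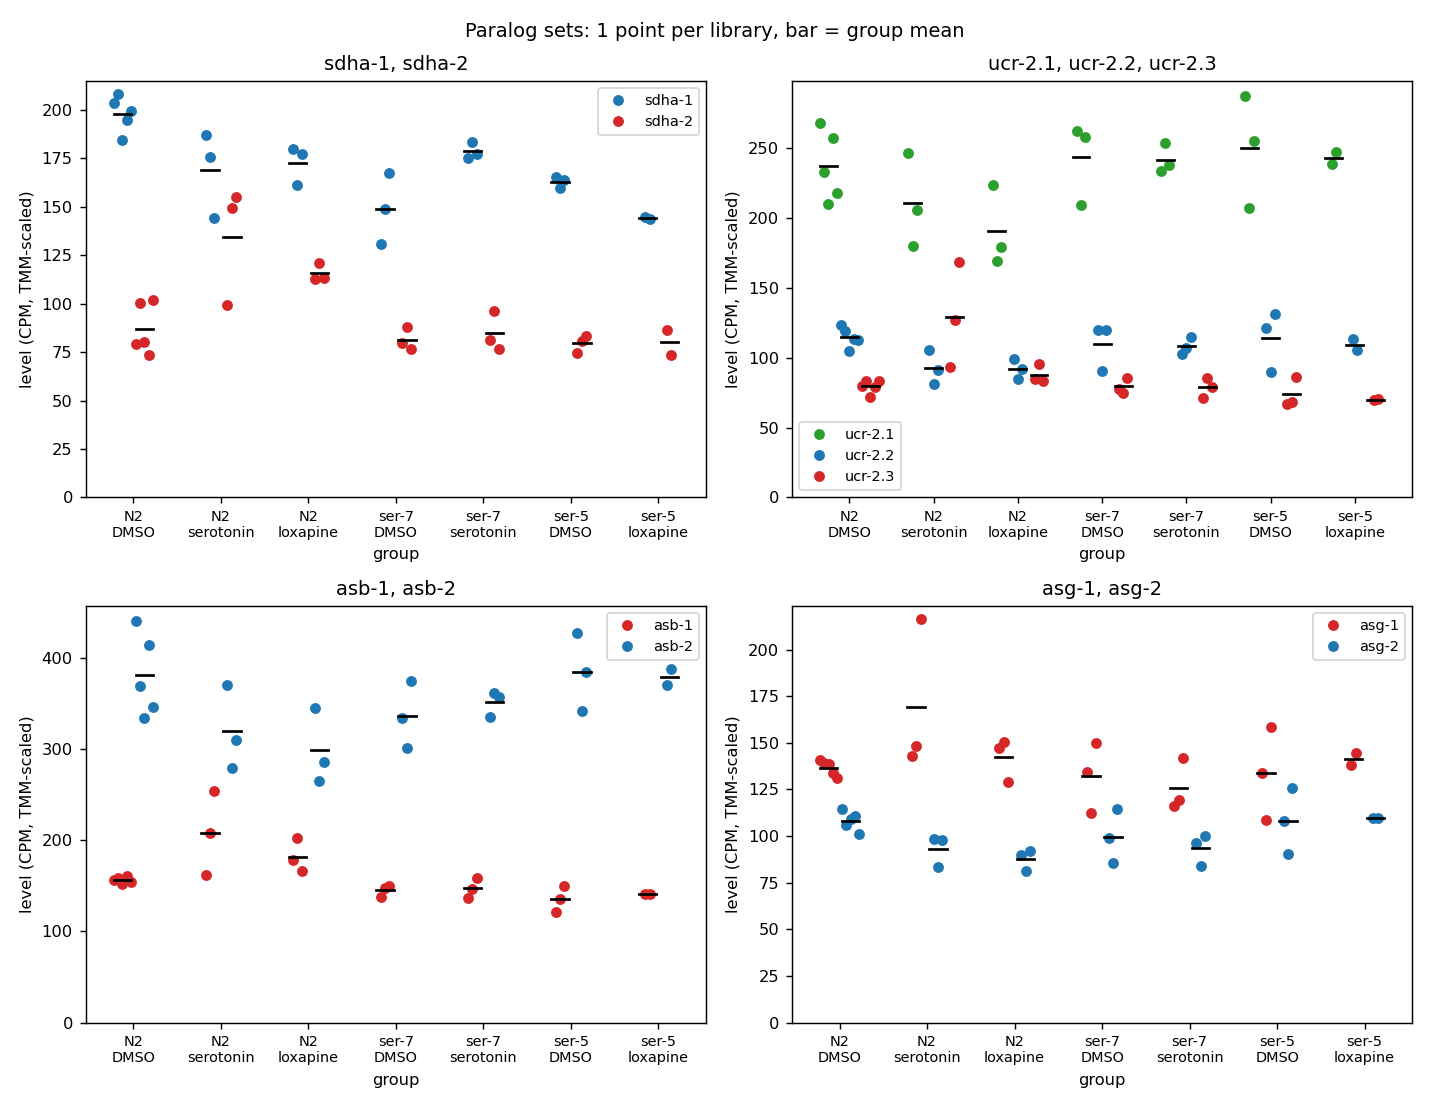
CPM of the paralog sets sdha-1 and sdha-2, the 3 ucr-2 genes, asb-1 and asb-2, and asg-1 and asg-2, with 1 point per library and a bar at the mean of each of the 7 groups (2 to 5 libraries). Red marks the autosomal copies, of which ucr-2.3 is at 93.0 to 168 CPM in N2 with serotonin against 72.0 to 83.7 with DMSO and sdha-2 overlaps between these groups, while in ser-7 with serotonin ucr-2.3 is at 71.5 to 85.8 CPM.

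The remaining call was cox-11 (IV:13244324-13247160), which delivers copper to complex IV. It was at 25.3, 31.2, 27.5, 24.9 and 28.5 CPM in the N2 controls and at 28.1, 36.5 and 39.1 CPM with serotonin, with replicate 1 inside the control range. The rise was 1.26-fold (log2 0.33 ± 0.10 SE, adjusted p = 0.0168, edgeR), and the call was lost in 6 of 18 alternatives. It did not pass under the replicate block (0.0562) or without serotonin replicates 2 (0.0741) or 3 (0.147). Nor did it pass without a filter (0.0672), with the compared groups only (0.151) or with N2 DMSO replicates 2 and 3 as the only controls (0.154), all edgeR adjusted p-values. The other assembly genes, cox-10, cox-15 and cox-17 (a copper chaperone), had log2 fold changes of -0.12, 0.03 and 0.21. The complex IV subunits cco-1 and cco-2, of the COX5B and COX5A types, were at -0.01 and -0.02. None of the 8 nuclear complex I members passed. Their log2 fold changes ran from -0.19 for gas-1, a core subunit, to 0.21 for nuo-3, an accessory subunit, and nuo-3 passed with RLE size factors, with DESeq2 and without serotonin replicate 2. Of the cytochrome c genes, cyc-2.1 was at log2 -0.18 ± 0.14 and cyc-2.2, with 0 to 29 counts per library, was too low for a comparison.

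Position was not used to choose the members. The X chromosome held 6 of them, gas-1, sdha-1, ucr-2.1, ucr-2.2, asb-2 and asg-2, and 5 of them belong to the paralog sets above. With serotonin all 6 had log2 fold changes below 0, with a median of -0.22, and 2 were lower. Of the 29 autosomal members 4 were higher and 0 lower, with a median of 0.07. Over all tested genes the same difference in position was present: of 2400 X-linked genes 24.6% were lower and 5.5% higher (median -0.29), and of 14021 autosomal genes 15.4% were lower and 22.9% higher (median -0.08). In C. elegans the X chromosome is known to be little transcribed in the germline.

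Markers of other tissues moved in the same comparison. Of 13 oocyte and eggshell markers in the table, of 16 listed, 12 were higher and 1 lower with serotonin in N2, and their summed level was 8249 to 13990 CPM against 6932 to 7576 CPM in the controls. Of 13 germline markers 10 were higher (2311 to 3407 against 1764 to 2072 CPM). Of 14 body wall muscle markers 12 were lower (2931 to 3519 against 5286 to 6292 CPM), as were 11 of 13 neuron markers (646.5 to 750.3 against 848.8 to 1043 CPM) and 4 of 5 pharyngeal muscle markers (79.6 to 103 against 165 to 241 CPM). Of 10 intestine markers 1 was higher and 3 lower, with summed levels of 1854 to 5479 against 1876 to 2552 CPM. Of 6 hypodermis markers 1 was higher and 2 lower (305 to 497 against 346.5 to 520 CPM). Of 8 tested sperm markers 0 passed (3.41 to 13.2 against 5.26 to 14.6 CPM; 0 at unadjusted p under 0.05). No marker was at 0 throughout N2 with DMSO or with serotonin. The mean log2 level of the oocyte markers, relative to the controls, was 0.39, 0.74 and 1.18 in serotonin replicates 1, 2 and 3, and replicate 1 was also the lowest of the 3 for ucr-2.3, sdha-2, asb-1, asg-1 and cox-11. That order was not particular to oocyte markers. Germline markers were at 0.15, 0.59 and 0.78, sperm markers at -1.3, 0.07 and 0.3, and pyruvate dehydrogenase genes at -0.02, 0.26 and 0.49. Markers of body wall muscle (-0.72, -0.89 and -0.68) and pharyngeal muscle (-1.01, -0.72 and -0.89) did not follow it. Serotonin replicates 1 and 3 were the least alike of all replicate pairs (chi-square per degree of freedom of 151). The part of tissue composition in the paralog results was not tested.

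Loxapine in N2 gave 3 member calls, and each was lost under some of the alternatives. The higher member was sdha-2 and the lower members were asb-2 and asg-2, which is 6.67% of members against 18.9% of all tested genes (10.5% higher and 8.38% lower). The libraries with loxapine shared their controls with the serotonin comparison. The level of sdha-2 with loxapine was 113, 121 and 113 CPM in replicates 1 to 3, all above the highest control at 102 (log2 0.41 ± 0.13 SE, adjusted p = 0.0335, edgeR). The level of asb-2 was 345, 264.5 and 286 CPM, of which replicate 1 lay within the control range (log2 -0.35 ± 0.12, adjusted p = 0.0436, edgeR). The level of asg-2 was 89.8, 81.1 and 92.0 CPM, all below the lowest control at 101 (log2 -0.31 ± 0.10, adjusted p = 0.0454, edgeR). The genes that missed the threshold most narrowly were cyc-2.1, the abundant cytochrome c gene (log2 -0.39, adjusted p = 0.0552, edgeR), gas-1 (log2 -0.27, 0.057) and ucr-2.2 (log2 -0.32, 0.0615).

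The loxapine count depended on single libraries and on the block used. It was 0 without N2 DMSO replicates 2 or 5 and without loxapine replicates 2 or 3, 1 without N2 DMSO replicates 3 or 4, 4 without N2 DMSO replicate 6 and 5 without loxapine replicate 1. With RLE size factors it was 1, sdha-2, so the split of 1 higher and 2 lower became 1 and 0. With the replicate block it was 6, all lower, namely asb-2, asg-2, cyc-2.1, gas-1, ucr-2.1 and ucr-2.2, and sdha-2 no longer passed (adjusted p = 0.0697, edgeR). With the run of library numbers as the block it was 9, with asb-1, cox-11 and sdha-2 higher and the same 6 lower. The replicate block leaves N2 DMSO replicates 4 to 6 without weight, so its pairing and its change of controls cannot be told apart. Nuclear members had a median log2 fold change of -0.12, with 25 of 35 below 0, and mitochondrial members of -0.08, beside -0.07 for all tested genes. The 6 X-linked members were all below 0 (median -0.31), beside a median of -0.20 for all tested X-linked genes. Of the oocyte and eggshell markers 11 were higher and 1 lower (8035 to 9020 CPM), of germline markers 7 were higher (2266 to 2468 CPM), and 12 body wall muscle markers (2941 to 3965 CPM), 6 neuron markers (678 to 786 CPM) and 1 pharyngeal muscle marker (120.5 to 157 CPM) were lower. Of intestine, hypodermis and sperm markers 0 passed (at unadjusted p under 0.05, 3, 0 and 0). Their part in the member results was not tested.

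Serotonin and loxapine were set against each other in N2, with the vehicle difference named above. No member passed in edgeR (0 of 45, with 2 at unadjusted p under 0.05), against 1.5% of all tested genes, of which 0.548% were higher and 0.949% lower with serotonin. DESeq2 and the replicate block each called 1 member, ucr-2.3, and 2 passed without serotonin replicate 1, asb-1 and ucr-2.3. For ucr-2.3 the level was 85.0, 95.6 and 83.2 CPM with loxapine and 93.0, 127 and 168 CPM with serotonin. The groups overlapped, and the log2 difference of 0.56 ± 0.15 had an adjusted p of 0.0571 (edgeR) with a 95% interval of 0.25 to 0.86. For sdha-2 the log2 difference was 0.22, with a 95% interval of -0.08 to 0.52.

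In the ser-7 strain serotonin gave no call among the members. None of 45 passed in edgeR (2 at unadjusted p under 0.05, 0 in DESeq2), and 0% of all tested genes passed, although 643 had an unadjusted p under 0.05. With DMSO, ucr-2.3 was at 77.7, 74.8 and 85.7 CPM in ser-7, and with serotonin at 71.5, 85.8 and 79.0 CPM. These groups overlapped, with a log2 fold change of -0.01 ± 0.15 and a 95% interval of -0.32 to 0.29. The level of sdha-2 was 79.5, 87.9 and 76.8 CPM with DMSO and 81.2, 96.1 and 76.7 CPM with serotonin, again overlapping (log2 0.06 ± 0.15). That of asb-1 was 137.5, 148 and 150 CPM with DMSO and 137, 147 and 158 CPM with serotonin (log2 0.02 ± 0.12). The per-kb ratio of sdha-2 to sdha-1 was 0.651 ± 0.096 with DMSO and 0.558 ± 0.054 with serotonin, and that of ucr-2.3 to ucr-2.2 was 0.778 ± 0.096 and 0.776 ± 0.068 (SD, n = 3 each). Oocyte and eggshell markers were at 5203 to 7041 CPM with DMSO and 5127 to 5746 CPM with serotonin, and 0 of 13 passed.

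The difference between the strains in the serotonin response was tested as an interaction. It passed for 2 of 45 members, against 15.6% of all tested genes (5.65% higher and 9.96% lower in ser-7). The response of ucr-2.3 was lower in ser-7 than in N2 (log2 -0.71 ± 0.20 SE, adjusted p = 0.0192, edgeR). The response of sdha-1 was higher in ser-7 (log2 0.49 ± 0.13, adjusted p = 0.0162, edgeR), its level there being 131, 149 and 167.5 CPM with DMSO and 175, 184 and 177 CPM with serotonin, without overlap. That rise within ser-7 (log2 0.26) did not pass. With serotonin the strains overlapped, N2 being at 187, 175.5 and 144 CPM. The ser-7 DMSO libraries also give the lower sdha-1 of ser-7 against N2 in DMSO, so the interaction and that call are not independent. For sdha-2 the interaction was -0.57 ± 0.20 (adjusted p = 0.0518, edgeR) and for asb-1 -0.39 ± 0.16 (0.107). The interaction for ucr-2.3 did not pass without N2 serotonin replicate 3 (log2 -0.47, 0.0785) or ser-7 serotonin replicate 1 (log2 -0.65, 0.0569), and that for sdha-1 did not pass without ser-7 DMSO replicate 1 (log2 0.41, 0.0511). With N2 DMSO replicates 2 and 3 as the only controls both were lost (ucr-2.3 0.0982, sdha-1 0.0563, edgeR). With replicates 4 to 6 only, sdha-1 was lost (0.0519, edgeR). Leaving out N2 serotonin replicate 1 raised the number to 5, adding sdha-2, asb-1 and cox-11, and sdha-2 also passed without N2 DMSO replicates 3 (0.0369) or 6 (0.0345) or ser-7 serotonin replicate 2 (0.0392). It passed too with DESeq2 (adjusted p = 0.0324, Wald test) and with RLE size factors (0.0427, edgeR). With the run of library numbers as a block, sdha-2 (0.0216) and asb-1 (0.037) passed (edgeR). Without ser-7 DMSO replicate 3 nuo-5 passed as well. In the same interaction 12 of 13 oocyte markers and 6 of 13 germline markers were lower and 9 of 14 body wall muscle and 4 of 5 pharyngeal muscle markers higher in ser-7, and the part of these was not tested.

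**Figure D4:**
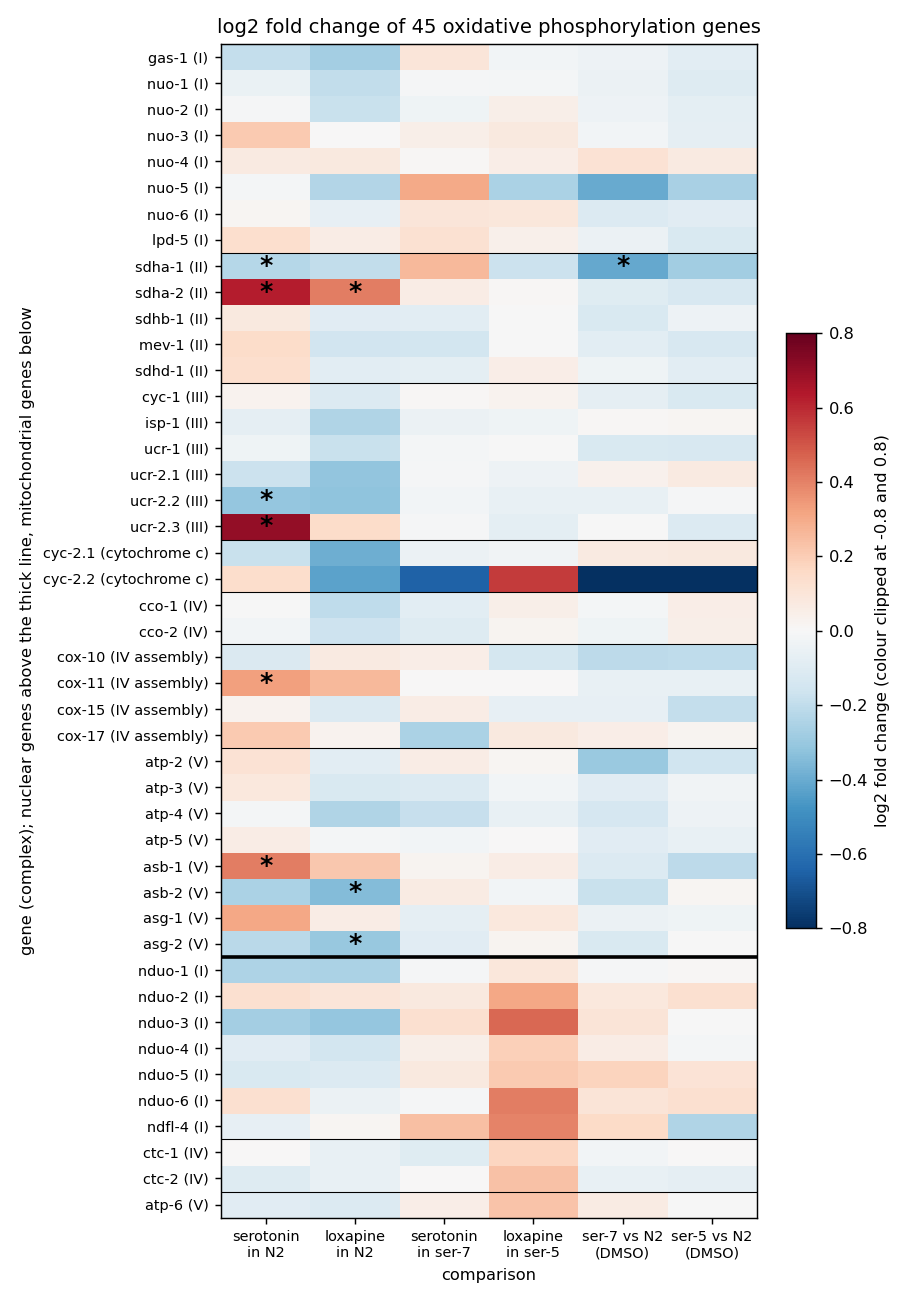
log2 fold change of the 45 genes (rows, by complex, nuclear above the thick line and mitochondrial below) in 6 comparisons (columns), with the colour clipped at -0.8 and 0.8 and a star where the adjusted p passed (edgeR). Stars fall in complexes II, III and V and on cox-11, with 6 for serotonin in N2, 3 for loxapine in N2 and 1 for ser-7 against N2, while the dark cells of cyc-2.2 rest on 0 to 29 counts per library and carry no star.

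In DMSO the ser-7 strain differed from N2 in 1 member, against 1.2% of all tested genes. The flavoprotein gene sdha-1 was lower, at the 131 to 167.5 CPM given above against 184.5 to 208 CPM in N2, without overlap (log2 -0.41 ± 0.09 SE, adjusted p = 0.026, edgeR). The call was lost under the replicate block (adjusted p = 0.0881) and without N2 DMSO replicates 2 (0.0504), 3 (0.0746) or 6 (0.0618) or ser-7 DMSO replicates 1 (0.227) or 2 (0.107), while without ser-7 DMSO replicate 3 the count was 2. In the same comparison all 13 oocyte and eggshell markers were below 0 (median log2 -0.26, summed 5203 to 7041 against 6932 to 7576 CPM), with 0 called and 6 at unadjusted p under 0.05 in edgeR. Of 13 germline markers 1 was lower (1424 to 1678 against 1764 to 2072 CPM), and 12 of 14 body wall muscle markers were below 0 with 0 called (4 at unadjusted p under 0.05; 3895 to 5869 against 5286 to 6292 CPM). The 8 sperm markers had a median log2 of -1.24 with 0 called (4 at unadjusted p under 0.05; 4.34 to 5.31 against 5.26 to 14.6 CPM). The part of these markers in the sdha-1 result was not tested. The complex I core subunit gene nuo-5 was at 122, 159 and 188 CPM in ser-7 and 190 to 216 CPM in N2, also without overlap, and did not pass (log2 -0.40 ± 0.10, adjusted p = 0.0598, edgeR). In the ser-5 strain sdha-1 was at 165, 160 and 164 CPM, below every N2 control, with a log2 difference of -0.28 that did not pass (adjusted p = 0.714, edgeR). No member passed for ser-5 against N2 (0 of 45 in edgeR, 3 at unadjusted p under 0.05, 0 in DESeq2), against 0.00609% of all tested genes. These comparisons use the same N2 controls.

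Loxapine in the ser-5 strain gave 0 of 45 members past the test in edgeR, with 0 at unadjusted p under 0.05 and 0 in DESeq2, against 0.0487% of all tested genes. The level of sdha-2 was 74.6, 80.7 and 83.5 CPM with DMSO and 86.5 and 73.5 CPM with loxapine, and asb-2 was at 427, 341 and 385 CPM with DMSO and 370 and 388 CPM with loxapine. Both genes overlapped between the groups. The interaction of the loxapine response with the strain passed for 0 of 45 members and 0% of all tested genes in edgeR. Unadjusted p-values under 0.05 were 0 among members and 1561 among all genes, and DESeq2 called 0 members and 19 genes.

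No mitochondrial member passed in any of the 9 comparisons in edgeR or DESeq2, and none had an unadjusted p under 0.05 in edgeR. Precision was lower for these genes. With serotonin in N2 the median SE of the log2 fold change was 0.241 for mitochondrial members and 0.104 for nuclear members. A change of the size called in a nuclear member could therefore be missed in a mitochondrial member. Over 32 alternatives with 1570 tests of these genes, 1 passed, nduo-1 with serotonin in N2 when only those 2 groups were fitted (log2 -0.32, adjusted p = 0.0194, edgeR). In the fit of all groups nduo-1 was at log2 -0.25 ± 0.14 (adjusted p = 0.188), with 432, 434 and 481 CPM with serotonin and 504 to 561 CPM in the controls, without overlap. The highest library was 1.63 to 4.62 times the lowest for the mitochondrial members, with a median of 2.16, and at most 2.53 times the lowest for 34 nuclear members, with a median of 1.57 (cyc-2.2, with 1 library at 0, left out). The 4 abundant mitochondrial genes, nduo-1, ctc-1, ctc-2 and atp-6, were at 1.63, 1.74, 1.88 and 1.97 times, within the nuclear range, and the widest ranges, 4.62 for ndfl-4 and 2.84 for nduo-6, belonged to genes of at most 26 and 255 counts. The mitochondrial members took 0.420 to 0.702% of all counts per library, and the nuclear members 0.823 to 0.942%.

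The summed share of the mitochondrial members varied within groups. The lowest shares were 0.420% in ser-7 DMSO replicate 2 and 0.446% in N2 serotonin replicate 1. The highest were 0.702% in ser-5 loxapine replicate 2 and 0.675% in ser-7 DMSO replicate 3, so the ser-7 DMSO group alone covered most of the range. Group means were 0.539 ± 0.044% for N2 DMSO (SD, n = 5), 0.496 ± 0.045% for N2 serotonin and 0.536 ± 0.101% for N2 loxapine (SD, n = 3 each). They were 0.545 ± 0.127% for ser-7 DMSO, 0.532 ± 0.087% for ser-7 serotonin and 0.541 ± 0.100% for ser-5 DMSO (SD, n = 3 each), and highest in ser-5 loxapine at 0.622 ± 0.114% (SD, n = 2), where the libraries were at 0.542 and 0.702%. By the run of library numbers in the labels, the median share was 0.521% for libraries 1 to 8, 0.507% for 13 to 20 and 0.603% for 25 to 31. The lowest library of the second run, ser-7 DMSO replicate 2, and its highest, ser-5 loxapine replicate 2, spanned the whole range of the 22.

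With loxapine in ser-5 all 10 mitochondrial members had log2 fold changes above 0, from 0.09 for nduo-1 to 0.46 for nduo-3 (ND3), with a median of 0.23, and none passed. The mean log2 level of the mitochondrial members, relative to N2 DMSO, was 0.16, -0.48 and 0.28 in ser-5 DMSO replicates 1 to 3 and 0.17 and 0.38 in ser-5 loxapine replicates 1 and 2. In the first run of library numbers the loxapine and DMSO libraries were close (0.17 and 0.16), and in the second they were far apart (0.38 and -0.48). Without ser-5 DMSO replicate 2 the median was 0.04, and without ser-5 loxapine replicate 2 it was 0.05. In N2 the corresponding mean log2 level with loxapine was -0.21, 0.23 and -0.31 in replicates 1 to 3, and with serotonin -0.23, -0.03 and 0.06.

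**Figure D5:**
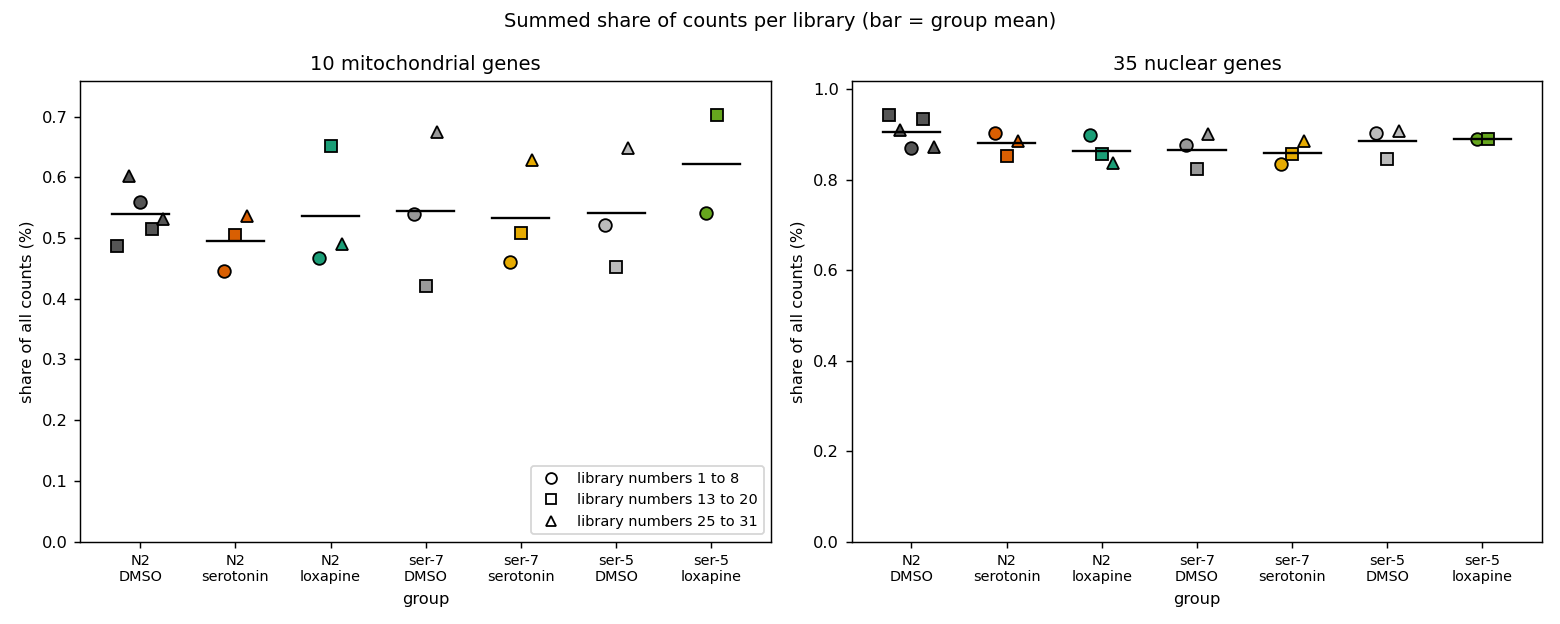
Share of all counts (%) in each library taken by the 10 mitochondrial genes (left) and the 35 nuclear genes (right), by group, with the marker shape giving the run of library numbers and a bar at the group mean. The mitochondrial share ranges from 0.420 to 0.702% and spreads widely within groups, while the nuclear share stays between 0.823 and 0.942%.

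Other genes of the pathway were read from lists that do not overlap the members. Of 22 further complex I subunits in the table, 1 was higher with serotonin in N2 and 0 were lower. Of 10 further subunits of complexes III and V, 0 passed in edgeR (0 at unadjusted p under 0.05). A further 10 genes match the member names by their current symbols but not by those in the table, a set found after the files were seen, and 0 of them passed with serotonin (0 at unadjusted p under 0.05). With loxapine 0 of these 3 sets passed (2, 1 and 2 at unadjusted p under 0.05). For the lists around the chain, the share of all tested genes called in either direction was 37.1% with serotonin and 18.9% with loxapine. The share called higher, which is the one to set beside a count of rises, was 20.4% with serotonin and 10.5% with loxapine. None of the lists was tested against these shares. Among them, 7 of 17 (41.2%) for assembly and protein quality rose with serotonin, among them hsp-60, the mitochondrial chaperonin (log2 0.65 ± 0.14), nuaf-3, a complex I assembly factor (log2 0.49 ± 0.13), and phb-2, a prohibitin (log2 0.42 ± 0.09), and 0 fell. With loxapine 4 of them rose, hsp-60 by log2 0.60. Of 5 genes for mitochondrial DNA upkeep and transcription 3 rose with serotonin, mtss-1 (a single-stranded DNA binding protein, log2 0.46), hmg-5 (the DNA packaging protein, log2 0.36) and rpom-1 (the RNA polymerase, log2 0.21), and 2 with loxapine. Of 8 ubiquinone synthesis genes 2 (25%) rose with each compound, coq-8 (log2 0.56) and coq-5 (log2 0.54) with serotonin and coq-1 (log2 0.56) and coq-5 (log2 0.44) with loxapine.

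Genes of carbon supply to the chain did not share 1 pattern. With serotonin 26.7% were called for the tricarboxylic acid cycle and 26.3% for glycolysis, below the 37.1% of all tested genes. For pyruvate dehydrogenase 3 of 5 were higher, above the 20.4% of all tested genes called higher. Of 15 genes of the tricarboxylic acid cycle 3 rose with serotonin and 1 fell: sucg-1, of succinyl-CoA synthetase (log2 0.67 ± 0.12), sucl-2 (log2 0.41 ± 0.12) and mdh-2, malate dehydrogenase (log2 0.36 ± 0.10), rose, and sucl-1 fell by 0.31 ± 0.10 on the log2 scale. With loxapine 1 rose, sucg-1 (log2 0.40). Of 5 genes of pyruvate dehydrogenase 3 rose with serotonin, pdhk-2, a kinase that inhibits the enzyme, by log2 0.55 ± 0.12, and 1 with loxapine (pdhk-2, log2 0.42). Of 19 glycolysis genes 3 rose and 2 fell with serotonin. Among the genes for glyceraldehyde-3-phosphate dehydrogenase, gpd-1 (log2 1.04 ± 0.14) and gpd-4 (log2 0.75 ± 0.14) rose while gpd-2 fell by 0.36 ± 0.13. These near-identical copies can share reads, and how such reads were assigned is not given in the sources used here, so their separate values are uncertain. With loxapine 1 of 19 rose, gpd-1 (log2 0.56), and 4 fell, among them aldo-1, an aldolase, by 0.60 on the log2 scale. The share that fell was above the 8.38% of all tested genes called lower with loxapine, and the share that rose was below the 10.5% called higher. Of 6 adenine nucleotide and phosphate carriers 0 passed with serotonin or loxapine in edgeR (2 and 0 at unadjusted p under 0.05).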

How the data were processed

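Whole-animal RNA was read in 1 direction, 100 nucleotides a read and 6 libraries to a lane, according to the labels' protocols. What the authors deposited is a single table of raw counts (19598 genes by 22 libraries) of whole, unscaled numbers. The aligner, counting program, genome build and strand setting are not given in the material used here. Positions and exon lengths come from Ensembl's annotation of WBcel235 and were joined by gene identifier.

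The low count filter of edgeR 4.0.16 (run in R 4.3.3) asks for a minimum count of 10 and a minimum total of 15, and 16431 genes passed. Normalization was TMM. A quasi-likelihood fit, robust, gave each of the 7 groups its own mean, and 9 contrasts were tested, with Benjamini-Hochberg adjustment across every tested gene and a threshold of 0.05. A standard error is the size of the log2 fold change divided by the root of its F statistic, and intervals are at 95%. The alternatives tried were DESeq2 1.42.0, RLE size factors, scaling without mitochondrial genes, no filter, the compared groups alone, blocks for the replicate tag or for the run of library numbers, fewer or summed N2 DMSO libraries, and each library left out. The code was tested on simulated data.

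The replicate block uses the batch tag in the labels, which pairs libraries across groups. The tags r4, r5 and r6 belong to single N2 DMSO libraries, which then carry no weight. Deviations from the group means of the 51 pairs with the same tag correlated from -0.0959 to 0.648 (median 0.230). The median was -0.0897 in 154 pairs with different tags. Pairs from the same run of library numbers had a median of 0.247 (68 pairs), and pairs from different runs -0.131 (137 pairs). The main fit had no block for tag or run. With the run as a block, 46.6% of all tested genes passed with serotonin in N2, against 37.1% in the main fit.

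The members and gene lists were chosen with earlier results of these data known. Named genes were all mitochondrial members, all of complex II and cytochrome c, all paralog sets, up to 3 called members per complex and direction, the highest and lowest by level, and up to 3 called genes of each other list. The near misses gas-1, nuo-3 and nuo-5, the uncalled single-copy subunits and the split by chromosome were added after their values were seen. The called gene of the list of further complex I subunits is not reported here.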

Additional observations from a re-analysis of the deposited data

Results flagged for a closer look

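Within the 5 N2 DMSO libraries, 3 of 45 genes had 1 library far from the others by Dixon's test at 95%, and chance alone flags about 1 gene in 20. The mitochondrial gene nduo-6 was at 6.74 CPM in replicate 4, against 3.20 to 3.97 CPM in the others. The level of ctc-1 was 3228 CPM in replicate 3, against 2731 to 2840 CPM. The assembly gene cox-15 was at 64.1 CPM in replicate 4, against 70.3 to 72.2 CPM.

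The serotonin response differed between ser-7 and N2 by the interaction test for ucr-2.3 (log2 -0.71) and for sdha-1 (log2 0.49), with the adjusted p-values and limits given above.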

How the results depend on the processing

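No direction of a called value turned under any alternative. With serotonin in N2 the count of 6 members was 2 with N2 DMSO replicates 2 and 3 as the only controls, 2 to 8 on leaving out single libraries, 5 (3 higher, 2 lower) under the replicate block and 8 (5 higher, 3 lower) with the series block. With the near-duplicate N2 DMSO libraries summed, asb-1, cox-11, sdha-2 and ucr-2.3 stayed called with serotonin. The lower calls of sdha-1 (adjusted p = 0.126, edgeR) and ucr-2.2 (0.124) were then lost. They were also lost with N2 DMSO replicates 4 to 6 only (0.164 and 0.17, edgeR). With loxapine in N2 the count of 3 was 1 with RLE size factors, 6 with the compared groups only, 6 with the replicate block, 9 with the series block, 0 with each of the 3 changes to the N2 DMSO libraries (replicates 2 and 3 only, 4 to 6 only, near-duplicates summed), and 0 to 5 on leaving out single libraries. For ser-7 against N2 in DMSO the count of 1 was 2 with DESeq2 and with the series block, 0 with the replicate block and with each change to the N2 DMSO libraries, and 0 to 2 on leaving out libraries. For serotonin against loxapine the count of 0 was 1 with DESeq2, with the replicate block and with the series block, and 0 to 2 on leaving out libraries. For the ser-7 interaction the count of 2 was 4 with the series block, 0 with N2 DMSO replicates 2 and 3 only, 1 with 4 to 6 only, and 1 to 5 on leaving out libraries. It was 3 with DESeq2 (sdha-1, sdha-2 and ucr-2.3), and RLE size factors called the same genes. The median log2 fold change of nuclear members with serotonin in N2, 0.03, was 0.10 with DESeq2 and with RLE size factors, -0.045 without a filter and -0.049 with the compared groups only, and -0.04 to 0.07 on leaving out libraries. With loxapine in N2 the nuclear median was -0.21 under the replicate block and -0.20 with N2 DMSO replicates 2 and 3 only. Leaving out libraries moved the mitochondrial medians between -0.208 and 0.012 (serotonin in N2), -0.272 and 0.007 (loxapine in N2), -0.16 and 0.26 (serotonin in ser-7) and 0.038 and 0.429 (loxapine in ser-5), and the nuclear median with loxapine in ser-5 between -0.079 and 0.05. The replicate block changed no other count. Among all tested genes the split with serotonin in N2 was 3346 higher and 2756 lower, 3779 and 2305 with RLE size factors, 3832 and 2459 with DESeq2. The causes were not tested. Groups of 2 or 3 libraries and counts of 7 to 26 for ndfl-4 limit precision.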
